A study of Mus musculus with 8 samples.

Results

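The receptors and ligands of the ErbB family were examined in the pancreas buds of mouse embryos with and without the Hippo kinase genes *Lats1* and *Lats2*. The 10 genes were chosen by name, as the rows of the deposited FPKM table for *Egfr*, *Erbb2*, *Erbb3*, *Erbb4*, *Areg*, *Ereg*, *Hbegf*, *Btc*, *Tgfa* and *Nrg1*, out of 24341 genes in all. Of these, 4 encode receptors and 6 encode ligands. The libraries hold total RNA of single buds at stage E11.0, at about 40 somites, from embryos labelled as strain CD1. There were 5 WT buds and 3 buds of the genotype Pdx1Creearly;Lats1f/f;Lats2f/f (Lats1/2PanKO), where the *Pdx1* promoter drives Cre recombinase in the pancreatic epithelium against floxed alleles of both kinase genes. In general the study's methods allow WT or heterozygous littermates as controls, and for the sequencing they name WT. The surrounding mesenchyme was pulled away by hand, so each library holds the epithelium of a bud together with any other cells that stayed attached. The deletion is meant for the epithelium, and Cre activity in those other cells was not measured here.

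ErbB receptors are receptor tyrosine kinases that signal as pairs. EGFR binds ligands such as TGFA, AREG, EREG, BTC and HBEGF, ERBB3 and ERBB4 bind neuregulins, ERBB2 has no ligand of its own and is the favoured partner of the others, and ERBB3 has an impaired kinase and needs a partner to signal. Most ligands are made as membrane proteins and are cut loose by ADAM proteases, and signalling runs through RAS and ERK and through PI3K and AKT. In the embryonic pancreas this family is known for its part in the growth and branching of the epithelium and in endocrine differentiation, and AREG is known in several other tissues as a target of YAP, the coactivator that LATS1 and LATS2 hold in check.

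Each value is in FPKM, a fragment number divided by transcript length and by library depth, so levels can be compared between genes. The table holds no counts. From steps in the lowest values of 393 single-exon genes, 1 fragment on a transcript of 1000 bases was worth about 0.134 FPKM in WT replicate 5 and 0.0992 to 0.107 FPKM in the other 7 buds, so WT replicate 5 rests on the fewest fragments for a given FPKM. In each bud 56 to 68 of these genes were low enough to use, and 20 to 29 fell on the fitted steps. Fragment numbers below are therefore approximate. The level of *Lats1*, as a check of the labels, averaged 15.6 ± 0.905 FPKM over the WT buds (SD, n = 5) against 12.1 ± 1.87 FPKM over the Lats1/2PanKO buds (SD, n = 3), with every Lats1/2PanKO bud below every WT bud. For *Lats2* the levels were 13.8 ± 1.26 and 12.3 ± 1.15 FPKM, and the groups overlapped. Adjusted p-values in limma, fitted as below, were 0.269 for *Lats1* and 0.589 for *Lats2*. These levels are values of the whole gene and also count RNA from any attached cells, whose share was not measured. They therefore do not measure the extent of deletion. Between genotypes, the 13777 genes that averaged 0.5 FPKM or more were tested with limma on log2(FPKM + 1), a scale that understates the change of genes at low levels. Adjusted over all of them, 2 genes passed a threshold of 0.05, which is 0.0145% of the genes tested, and 1553 (11.3%) had an unadjusted p under 0.05. These counts were 19 and 812 without Lats1/2PanKO replicate 3, and over all single buds left out the first ranged from 0 to 19. The labels do not say that the buds came from separate litters, so p-values measure the spread between these buds.

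Lats1/2PanKO replicate 3 stood apart from the other buds in its cell type markers. The summed FPKM of 20 epithelial marker genes, such as *Cdh1*, *Epcam* and *Krt19*, was 319, 349, 285, 320 and 351 in WT replicates 1 to 5, and 602, 532 and 1235 in Lats1/2PanKO replicates 1 to 3. Of the 20 markers, 19 were tested, and 17 had an unadjusted p under 0.05 in limma and were higher in Lats1/2PanKO. Of all tested genes 6.29% had such a p and direction. In 16 markers the genotypes did not overlap, with Lats1/2PanKO above, against 4.46% of all tested genes. The summed FPKM of 18 mesenchyme markers was 749, 694, 903, 801 and 876 in WT and 529, 729 and 321 in Lats1/2PanKO. In such libraries, fewer cells of a type, a different completeness of the dissection and less RNA per cell cannot be told apart. This holds for every level below. Values are therefore also given without Lats1/2PanKO replicate 3 where it decides them.

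The receptor genes that the results turn on lie as follows in GRCm38, with starts counted from 1. *Egfr* spans chr11:16752203-16913907 and *Erbb2* chr11:98412484-98438988, both on the plus strand. *Erbb3* spans chr10:128569368-128589501 and *Erbb4* chr1:68039966-69108059, both on the minus strand. *Erbb2* and *Erbb3* each overlap 1 further gene model on their own strand, which for *Erbb3* is a microRNA gene, and *Erbb4* overlaps 8, and stranded counting cannot separate reads in those stretches. Of the 10 genes, 6 have an entry in the RefSeq promoter table. The DNA word GGAATG, the core to which TEAD factors, the DNA-binding partners of YAP, are known to bind, was searched on both strands from 250 bases before to 50 bases after each start. Of the 6, *Erbb2* alone holds it, against 14.7% of 32851 RefSeq promoters of the same 300 bases. The palindrome TGACGTCA, to which CREB family factors are known to bind, was found in *Areg* alone of the 6, against 1.79% of all promoters. The 250 bases before the start are shown for *Erbb2* and *Areg*, which hold the matches, and for *Egfr*, which holds neither, with matches in capitals. They are RefSeq sequences of GRCm38.p6 on the plus strand, at chr11:98412234-98412483 (*Erbb2*), chr5:91139349-91139598 (*Areg*) and chr11:16751953-16752202 (*Egfr*).

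Erbb2: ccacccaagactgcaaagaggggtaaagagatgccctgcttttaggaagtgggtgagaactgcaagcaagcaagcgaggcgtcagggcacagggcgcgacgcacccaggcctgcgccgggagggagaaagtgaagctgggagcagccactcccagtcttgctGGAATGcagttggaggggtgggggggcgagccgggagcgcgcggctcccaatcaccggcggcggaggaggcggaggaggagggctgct

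Areg: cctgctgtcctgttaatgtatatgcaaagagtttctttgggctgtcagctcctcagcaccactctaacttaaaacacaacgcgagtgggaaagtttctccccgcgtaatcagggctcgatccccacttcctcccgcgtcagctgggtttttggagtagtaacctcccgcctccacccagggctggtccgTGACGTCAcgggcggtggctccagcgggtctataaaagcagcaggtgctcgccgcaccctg

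Egfr: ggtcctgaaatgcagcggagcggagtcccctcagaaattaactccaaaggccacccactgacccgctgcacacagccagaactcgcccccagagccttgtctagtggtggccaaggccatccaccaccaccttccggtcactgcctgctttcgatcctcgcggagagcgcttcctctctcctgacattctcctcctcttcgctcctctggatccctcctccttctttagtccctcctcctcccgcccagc

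The match in *Erbb2* begins 88 bases before the start and that in *Areg* 61 bases before it. A match is a run of letters and does not show that a factor binds there.

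In WT buds, *Erbb2* was the highest of the 10 genes in every library. Its FPKM was 13.0, 12.9, 12.4, 12.3 and 14.1 in WT replicates 1 to 5, a mean of 12.9 ± 0.699 (SD, n = 5). *Erbb3* followed at 4.11 ± 0.509 FPKM and *Egfr* at 3.57 ± 1.50 FPKM, and these 2 did not differ beyond their spread, with *Erbb3* the higher in 3 of 5 buds. The ligands *Hbegf*, *Nrg1* and *Tgfa* came next at 1.88 ± 0.904, 1.31 ± 0.207 and 1.22 ± 0.252 FPKM, with overlapping ranges. *Erbb4*, the neuregulin receptor with a working kinase, had a lower mean than all of them, 0.319 ± 0.146 FPKM. In WT replicate 5 it was nevertheless above *Hbegf*, at 0.538 against 0.498 FPKM. *Btc*, *Ereg* and *Areg* were at or near 0. The plot of the members by bud shows 8 of the 10 genes, leaving out *Areg* and *Ereg*.

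**Figure D1:**
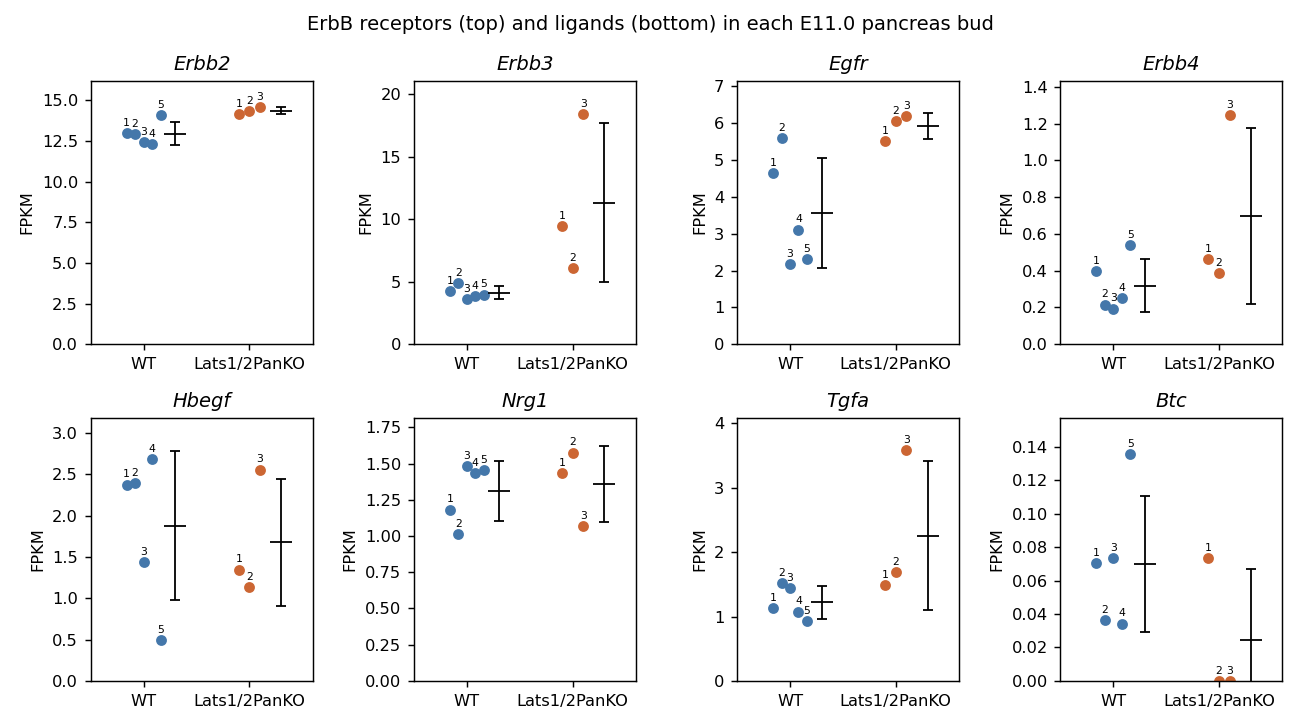
FPKM of 4 receptors (top) and 4 ligands (bottom) in each bud, with WT in blue, Lats1/2PanKO in orange, replicate numbers beside the points, and bars at the mean with SD (n = 5 and n = 3, cut at 0 for *Btc*). *Erbb3* lies between 3.58 and 4.91 FPKM in WT and at 6.11, 9.47 and 18.4 FPKM in Lats1/2PanKO, while the groups overlap for *Egfr*, *Erbb4* and the 4 ligands.

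Between genotypes, no member passed the adjusted threshold in limma, and 3 of the 6 tested members had an unadjusted p under 0.05. All 3, *Erbb3*, *Egfr* and *Tgfa*, were higher in Lats1/2PanKO, against 6.29% of all tested genes with such a p and this direction. Without Lats1/2PanKO replicate 3 the number was 1, *Erbb3*. Such a p with a lower level was found for none of the 6, against 4.99% of all tested genes. The genotypes did not overlap in *Erbb2* and *Erbb3*, where all Lats1/2PanKO buds were the higher ones. Of all tested genes, 7.51% did not overlap, 4.46% with Lats1/2PanKO above and 3.06% with Lats1/2PanKO below. Over the 6 members past the filter the median log2 fold change was 0.32, and over all tested genes it was -0.01. Each of the 6 also had a mean above 0.5 FPKM in the WT buds alone. The remaining 4, *Erbb4*, *Areg*, *Ereg* and *Btc*, were under the minimum and are described by their values.

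*Erbb3*, the receptor with the impaired kinase, showed the largest difference of the 6 tested members. Its FPKM was 4.26, 4.91, 3.58, 3.86 and 3.96 in WT replicates 1 to 5, and 9.47, 6.11 and 18.4 in Lats1/2PanKO replicates 1 to 3. The WT buds were close together, while the 3 Lats1/2PanKO buds differed among themselves by more than the whole WT range. The WT mean was 4.11 ± 0.509 FPKM (SD, n = 5) and the Lats1/2PanKO mean 11.3 ± 6.36 FPKM (SD, n = 3), a ratio of 2.75, or of 1.89 without Lats1/2PanKO replicate 3. The log2 fold change was 1.15 (SE 0.27, 95% confidence interval 0.54 to 1.76), with an adjusted p of 0.196 in limma and an exact two-sided permutation p of 0.0179, the smallest that 56 splits allow. Array weights in limma, set by the scatter of each bud in these same data, gave an adjusted p of 0.0392. The same weights raised the number of genes past the threshold from 2 to 174. Leaving out Lats1/2PanKO replicate 3 gave a log2 fold change of 0.76 with an adjusted p of 0.312 in limma.

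*Erbb2*, the partner receptor, was nearly flat by comparison. Its FPKM was 14.2, 14.4 and 14.6 in Lats1/2PanKO replicates 1 to 3, each above the highest WT bud at 14.1. The step was small, a ratio of means of 1.11 and a log2 fold change of 0.14 (SE 0.07, 95% confidence interval -0.02 to 0.30), with an adjusted p of 0.509 in limma and an exact permutation p of 0.0536.

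*Egfr*, the receptor for most of the ligands listed here, varied more between WT buds than the other receptors above 1 FPKM. Its FPKM was 4.65, 5.59, 2.18, 3.11 and 2.32 in WT replicates 1 to 5, and 5.52, 6.06 and 6.20 in Lats1/2PanKO replicates 1 to 3. WT replicates 1 and 2 were high, and WT replicate 2 lay above the lowest Lats1/2PanKO bud, so the groups overlapped. The ratio of means was 1.66, and the log2 fold change was 0.66 (SE 0.24) with an adjusted p of 0.362 in limma and an exact permutation p of 0.0714. WT replicates 1 and 2 also had the highest summed FPKM of leukocyte, mesothelium and pancreatic progenitor markers among the WT buds. The summed FPKM of 11 leukocyte genes was 28.1, 29.5, 14.2, 22.4 and 19.4 in WT and 35.1, 29.0 and 23.7 in Lats1/2PanKO. For 7 mesothelium genes it was 30.5, 31.3, 26.3, 25.2 and 25.4 in WT and 19.7, 22.5 and 10.1 in Lats1/2PanKO, so that these markers were low in the Lats1/2PanKO buds, where *Egfr* was high. Over the 5 WT buds, Pearson's r of *Egfr* with the mean log2(FPKM + 1) of a marker list was 0.98 for mesothelium and 0.94 for mesenchyme. It was 0.90 for epithelium, 0.90 for leukocytes, 0.81 for pancreatic progenitors and 0.55 or less for the other marker lists examined. The mesenchyme value depends on the measure. By mean log2(FPKM + 1) that list was highest in WT replicates 1 and 2, and by summed FPKM it was lowest there (749 and 694, against 903, 801 and 876). Among the Lats1/2PanKO buds, the leukocyte sum fell from replicate 1 to replicate 3 while *Egfr* rose. The part of any list in the *Egfr* level was not tested.

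*Erbb4* was low in both genotypes. Its FPKM was 0.396, 0.216, 0.194, 0.250 and 0.538 in WT and 0.462, 0.385 and 1.25 in Lats1/2PanKO. Replicates 1 and 2 of Lats1/2PanKO lay inside the WT range and replicate 3 above it. The ratio of means was 2.19, and 1.33 without that bud.

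The make-up of the receptor RNA was compared next, as the percent of each receptor in the summed FPKM of the 4 within a bud. The share of *Erbb2* fell from 62.2 ± 5.69% (SD, n = 5) in WT to 45.8 ± 8.81% (SD, n = 3) in Lats1/2PanKO, a difference of -16.4 percentage points. The share of *Erbb3* rose from 19.6 ± 0.725% to 33.4 ± 11.5%, a difference of 13.8 points. In both cases the groups did not overlap, with an exact two-sided permutation p of 0.0179 and 0.0357 after Benjamini-Hochberg adjustment over the 4 shares. The 4 shares sum to 100% in each bud, so a higher share of 1 receptor is a lower share of another, and they are not 4 separate results. The share of *Egfr* was 16.7% in WT and 18.8% in Lats1/2PanKO (exact permutation p = 0.554) and that of *Erbb4* was 1.52% and 2.02% (exact permutation p = 0.411).

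By bud, the share of *Erbb3* lay between 19.0 and 20.8% in WT, the tightest of the 4 receptors relative to its mean, and was 32.0, 22.7 and 45.5% in Lats1/2PanKO replicates 1 to 3. The ratio of *Erbb2* to *Erbb3* FPKM was 3.05, 2.63, 3.47, 3.19 and 3.55 in WT and 1.50, 2.35 and 0.793 in Lats1/2PanKO. *Erbb3* thus exceeded *Erbb2* in a single bud, Lats1/2PanKO replicate 3. Without that bud the difference was 7.72 points for *Erbb3* and -11.6 points for *Erbb2*, with an adjusted exact permutation p of 0.190 for both. That is above the 0.0952 which the same split of 5 against 2 buds gave without Lats1/2PanKO replicate 1 or 2. The summed FPKM of the 4 receptors was 18.4 to 23.6 in WT and 29.6, 26.9 and 40.5 in Lats1/2PanKO. Relative to library depth, every Lats1/2PanKO bud was thus above any WT bud in this sum. Its mean was 20.9 in WT and 32.3 in Lats1/2PanKO, of which *Erbb3* made up 4.11 and 11.3 FPKM. The plot of receptor shares gives each bud.

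**Figure D2:**
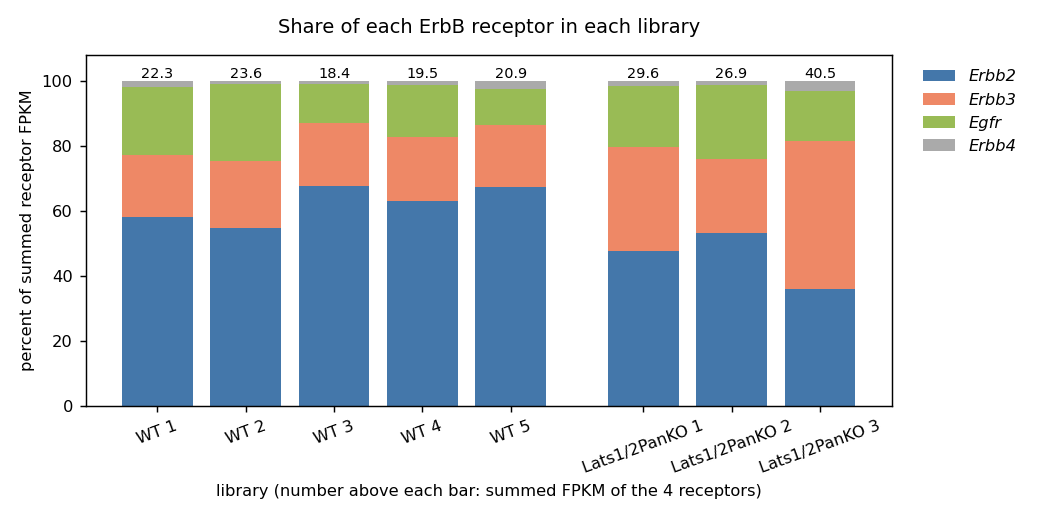
Percent of the summed FPKM of *Erbb2*, *Erbb3*, *Egfr* and *Erbb4* that each receptor takes, 1 bar a bud, with the summed FPKM above the bar. The *Erbb3* segment is 19.0 to 20.8% in the 5 WT buds and 22.7 to 45.5% in the 3 Lats1/2PanKO buds, and is larger than the *Erbb2* segment only in Lats1/2PanKO replicate 3.

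The *Erbb3* level followed the epithelial markers across the buds, and other marker lists too. Over the 8 buds, Pearson's r with the list mean was 0.99 for epithelium, 0.98 for pancreatic progenitors, 0.84 for liver and 0.53 for neural crest and nerve. Among the 3 Lats1/2PanKO buds it was 0.99, 1.00, 0.97 and 0.999 in that order. The part of any list in the *Erbb3* level was not tested. The mean log2(FPKM + 1) of the 20 epithelial markers was 3.13 to 3.36 in WT and 4.12, 3.86 and 4.95 in Lats1/2PanKO replicates 1 to 3, the same order of the Lats1/2PanKO buds as for *Erbb3*. When that mean was subtracted from log2(FPKM + 1) of the gene in the same bud, a comparison chosen after seeing the data, *Erbb3* stood at -0.89 ± 0.07 (SD, n = 5) in WT and -0.81 ± 0.20 (SD, n = 3) in Lats1/2PanKO. The difference was 0.07 and the groups overlapped, as they did for *Egfr* with a difference of -0.42. Relative to the markers, *Erbb2*, *Hbegf*, *Tgfa*, *Nrg1* and *Erbb4* lay below every WT bud in all 3 Lats1/2PanKO buds, with differences of -0.93, -1.15, -0.57, -1.05 and -0.74. On this scale 88.8% of all tested genes lay below without overlap and 0.196% above, so these 5 genes moved as most genes did on it. With the marker mean as a covariate in limma, the log2 fold change of *Erbb3* was -0.24. Genotype and marker level do not overlap between the groups, so the 2 cannot be told apart in these buds.

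**Figure D3:**
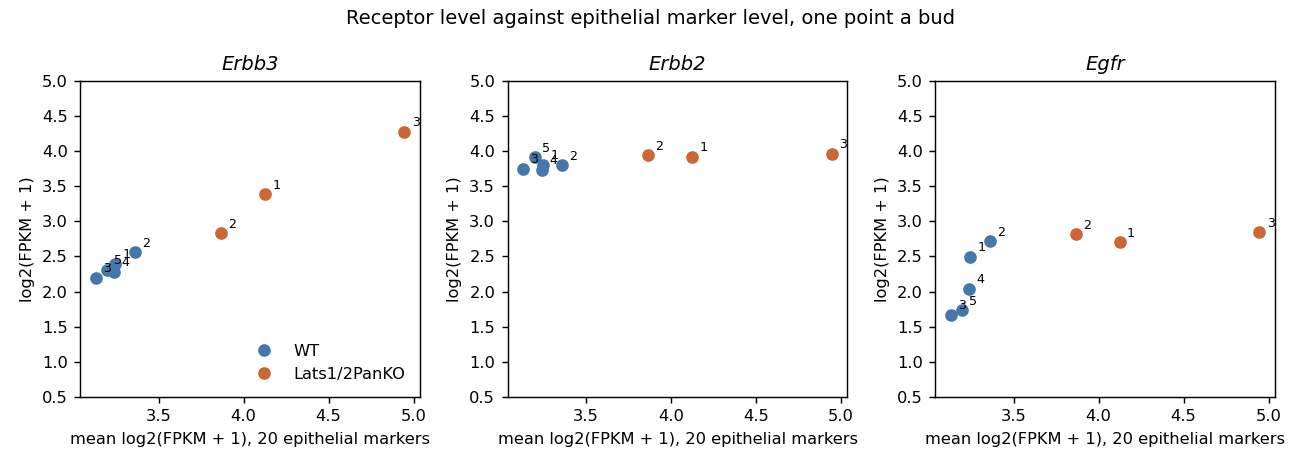
Level of *Erbb3*, *Erbb2* and *Egfr* as log2(FPKM + 1) against the mean log2(FPKM + 1) of 20 epithelial markers, 1 point a bud, with WT in blue and Lats1/2PanKO in orange. The *Erbb3* points climb with the markers from the WT buds to Lats1/2PanKO replicate 3, the *Erbb2* points stay level, and the *Egfr* points climb among the WT buds and are level among the Lats1/2PanKO buds.

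The genes whose pattern was most like each receptor were picked by Pearson's r of log2(FPKM + 1) over the 8 buds, as a description. For *Erbb3* they were *Epb4.1l5*, which encodes a cytoskeletal adaptor of the cell cortex (r = 0.99), *Cdh1*, which encodes E-cadherin (r = 0.99), and *Tmem27*, which encodes collectrin (r = 0.99). Such a likeness was common for *Erbb3*, with 364 of 11466 genes above 0.9, and without Lats1/2PanKO replicate 3 the 3 values were 0.976, 0.967 and 0.986. *Egfr* was most like *C1qb*, a complement gene of macrophages (r = 0.97), *Sparc*, a matrix protein gene (r = 0.97), and *Stim1*, a calcium sensor gene (r = 0.95). For *Egfr* 19 genes were above 0.9. *Erbb2* was most like *Kcnip3* (r = 0.97), *Lrpap1* (r = 0.96) and *Abhd11* (r = 0.95), and *Erbb4* most like *Serpina10* (r = 0.99), *Afap1l1* (r = 0.98) and *Dusp16* (r = 0.98). The buds share their genotype groups. Without Lats1/2PanKO replicate 3 the values, in the same order, were 0.98, 0.97 and 0.94 for *Egfr*. They were 0.96, 0.95 and 0.96 for *Erbb2* and 0.93, 0.93 and 0.92 for *Erbb4*. By ranks, the likeness of *Egfr* to *C1qb* over the 8 buds was weaker, with a Spearman's rho of 0.76. Between the 6 tested members themselves, r ranged from -0.65 for *Hbegf* and *Nrg1* to 0.89 over 15 pairs.

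Among the ligands, *Tgfa*, a ligand of EGFR, was the one with an unadjusted p under 0.05. Its FPKM was 1.13, 1.52, 1.44, 1.07 and 0.932 in WT and 1.49, 1.69 and 3.58 in Lats1/2PanKO replicates 1 to 3. Replicate 1 of Lats1/2PanKO lay inside the WT range, and replicate 3 was the highest of the 8 buds. The log2 fold change was 0.50 (SE 0.21, 95% confidence interval 0.02 to 0.98) with an adjusted p of 0.419 in limma and an exact permutation p of 0.0357. Without Lats1/2PanKO replicate 3 it was 0.23, and the ratio of means went from 1.85 to 1.30. *Tgfa* spans chr6:86195251-86275449.

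*Hbegf*, a heparin-binding ligand of EGFR and ERBB4, was the highest ligand in WT and varied widely. Its FPKM was 2.38, 2.40, 1.44, 2.69 and 0.498 in WT and 1.35, 1.13 and 2.56 in Lats1/2PanKO. WT replicate 5 was lowest and the groups overlapped. The log2 fold change was -0.07 (SE 0.31, 95% confidence interval -0.78 to 0.64) with an adjusted p of 0.955 in limma, and its sign turned when any of 5 single buds was left out.

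*Nrg1*, the neuregulin ligand of ERBB3 and ERBB4, was the steadiest of the tested ligands. Its FPKM was 1.18, 1.01, 1.48, 1.44 and 1.45 in WT and 1.43, 1.58 and 1.07 in Lats1/2PanKO. The log2 fold change was 0.03 (SE 0.14, 95% confidence interval -0.29 to 0.35) with an adjusted p of 0.961 in limma. Replicate 3 of Lats1/2PanKO, the bud with the highest *Erbb3*, had the lowest *Nrg1* of its group. The table gives *Nrg1* as chr8:31818028-31918203, which covers 9.37% of the span of the gene in GENCODE M21, so transcripts that start further upstream may not be counted in full.

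The other 3 ligands were at the limit of detection. *Btc*, a ligand of EGFR and ERBB4, lay between 0.0342 and 0.135 FPKM in WT and at 0.0733, 0 and 0 in Lats1/2PanKO replicates 1 to 3. At an annotated length of 2876 bases this is about 2, 1, 2, 1 and 3 fragments in WT and 2, 0 and 0 in Lats1/2PanKO, all within 0.0874 of a whole number. *Ereg*, a ligand of EGFR and ERBB4, was listed at 0.0240 FPKM in WT replicate 1, about 1 fragment, and at 0 in the other 7 buds. *Areg*, an EGFR ligand, was listed at 0 in all 8 buds. At its annotated length of 1215 bases, 3 fragments would have read 0.245 to 0.330 FPKM, which is the level that a listing at 0 allows, for counting error only. None of 12 housekeeping genes was listed at 0 in any library. No difference between genotypes was detectable for these ligands at this depth.

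The remaining EGF-type ligands were likewise low. *Egf*, the founding ligand, lay between 0.364 and 0.995 FPKM in WT and between 0.474 and 0.565 in Lats1/2PanKO, with a log2 fold change of -0.12 (adjusted p = 0.828 in limma). *Nrg2* had a log2 fold change of -0.06 (adjusted p = 0.919 in limma). *Epgn*, *Nrg3* and *Nrg4* were under the minimum level, at mean values of 0.0781, 0.0127 and 0.498 FPKM over the 8 buds. The summed FPKM of the 6 member ligands was 4.78, 4.96, 4.44, 5.23 and 3.02 in WT and 4.35, 4.39 and 7.21 in Lats1/2PanKO, so the groups overlapped, unlike the summed receptors.

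In the order of levels among Lats1/2PanKO buds, *Erbb2* (14.4 FPKM), *Erbb3* (11.3) and *Egfr* (5.93) again led. *Erbb2* and *Erbb3* now overlapped, which they did not in WT, and so did *Erbb3* and *Egfr*. *Tgfa* (2.25), *Hbegf* (1.68), *Nrg1* (1.36) and *Erbb4* (0.698) followed, and neighbours among these 4 overlapped.

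The genes around the receptors were described from 5 lists with 76 genes, of which 70 were tested. None passed the adjusted threshold in limma, and 12 had an unadjusted p under 0.05, or 17.1% against 11.3% of all tested genes, 9 with a higher and 3 with a lower level in the Lats1/2PanKO buds. The median log2 fold change over the 70 was -0.04, against -0.01 over all tested genes. The genotypes did not overlap in 10 of the 70, and in 7.51% of all tested genes. Of 10 genes of ligand release, 1 had an unadjusted p under 0.05, near the share of all tested genes. The gene was *Rhbdf1*, which encodes an inactive rhomboid that escorts the protease ADAM17 to the surface. It was 10.03 ± 1.29 FPKM in WT and 14.03 ± 1.99 FPKM in Lats1/2PanKO, without overlap, with a log2 fold change of 0.45 (adjusted p = 0.259 in limma). The proteases *Adam12* and *Adam9* had log2 fold changes of -0.33 and -0.14 with overlapping groups, and that of *Adam12* was -0.087 without Lats1/2PanKO replicate 3.

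Of 11 genes of receptor brakes and turnover, 2 with an unadjusted p under 0.05 were higher in Lats1/2PanKO and 1 was lower. Over all tested genes these shares were 6.29% and 4.99%. *Errfi1*, which encodes the inhibitor MIG6 that binds and silences the EGFR kinase, was 10.9, 9.73, 8.63, 9.99 and 8.74 FPKM in WT and 15.8, 14.4 and 28.4 FPKM in Lats1/2PanKO replicates 1 to 3. The groups did not overlap, and replicate 3 was again the highest. The log2 fold change was 0.90 (SE 0.19) with an adjusted p of 0.154 in limma and an exact permutation p of 0.0179. Array weights in limma, which put 174 genes past the threshold, gave an adjusted p of 0.0494. *Lrig3*, of a family of membrane proteins that includes the ErbB inhibitor LRIG1, was 13.4 ± 3.44 FPKM in WT and 8.59 ± 1.65 FPKM in Lats1/2PanKO, without overlap, with a log2 fold change of -0.57 (adjusted p = 0.319 in limma). *Usp8*, which encodes a deubiquitinase of endosomes, had a log2 fold change of 0.17 (adjusted p = 0.367 in limma).

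The 29 adaptor and kinase genes were close to even, with a median log2 fold change of 0.02. An unadjusted p under 0.05 was found for 4 of them, 2 in each direction, or 13.8% against 11.3% of all tested genes. *Gab1*, which encodes a docking protein for PI3K and SHP2, was 17.5 ± 0.935 FPKM in WT and 22.7 ± 3.12 FPKM in Lats1/2PanKO, a log2 fold change of 0.35 (adjusted p = 0.238 in limma). *Sos2*, a RAS exchange factor gene, had a log2 fold change of -0.26 (adjusted p = 0.269 in limma). Neither gene overlapped between genotypes.

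Of 21 response genes, which growth factor signalling is known to induce, 18 were tested. An unadjusted p under 0.05 was found for 4, all of them higher in Lats1/2PanKO, against 6.29% of all tested genes. The median log2 fold change over the 18 was -0.04. *Jun*, an AP-1 factor gene, was 36.4, 39.8, 26.0, 23.8 and 46.9 FPKM in WT and 52.5, 46.1 and 101.8 FPKM in Lats1/2PanKO, a log2 fold change of 0.88 (adjusted p = 0.315 in limma), or 0.54 without Lats1/2PanKO replicate 3. Lats1/2PanKO replicate 2 lay below WT replicate 5, so the groups overlapped. *Spry2*, a feedback inhibitor of RAS and ERK signalling, and *Ier2*, an immediate early gene, had log2 fold changes of 0.34 and 0.19 (adjusted p = 0.322 and 0.390 in limma). The plot of changes by list sets these genes beside the members and the epithelial markers.

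**Figure D4:**
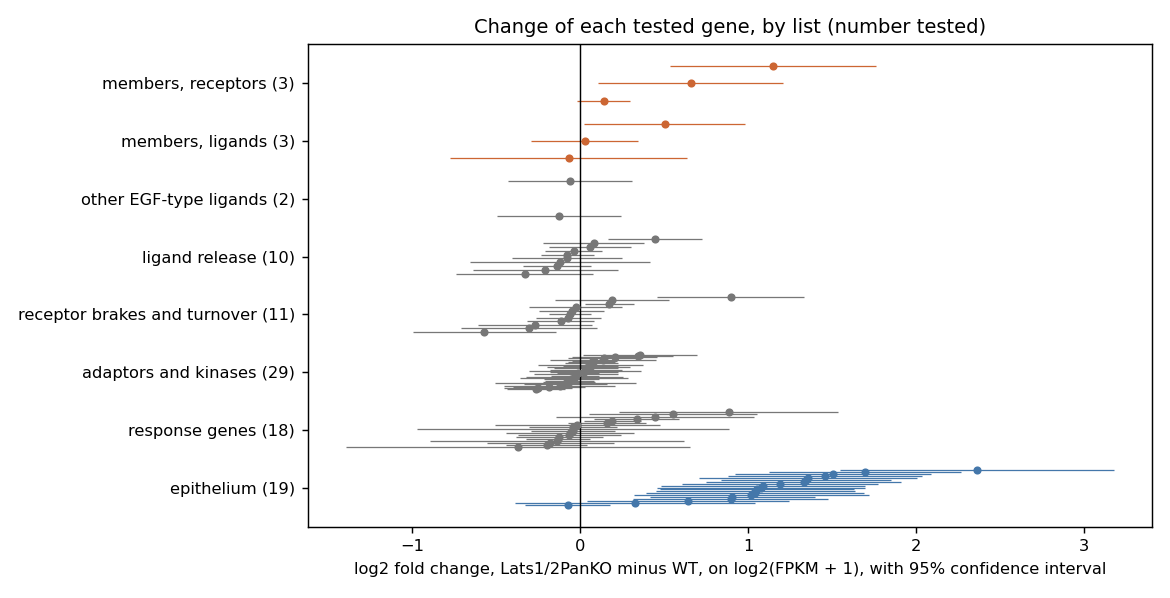
Log2 fold change of each tested gene, Lats1/2PanKO minus WT on log2(FPKM + 1), with its 95% confidence interval, grouped by list with the number tested. The tested receptors lie at 0.14, 0.66 and 1.15, the pathway lists lie around 0 with a median of -0.04, and 18 of 19 epithelial markers lie above 0 with a median of 1.08.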

How the data were processed

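Total RNA of 5 WT and 3 Lats1/2PanKO pancreas buds was sequenced after depletion of ribosomal RNA, in stranded libraries read from both ends. The submitters' processing notes name cutadapt 1.12 among the tools. According to the study's methods, the authors aligned reads to GRCm38 with TopHat 2.1.0 and computed FPKM with Cufflinks and Cuffdiff 2.2.1, and the deposited FPKM table was used as it stands. The methods state quantile normalization, but the 8 deposited columns differ in their distributions. The table also holds a status column, which was at its passing value for all genes named here. Groups and replicate numbers came from the sample labels.

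FPKM are not counts, so the 13777 genes that averaged 0.5 FPKM or more were fitted on log2(FPKM + 1) in limma 3.58.1 (R 4.3.3), with a trend of variance on level and Benjamini-Hochberg adjustment (threshold 0.05). Exact permutation tests, two-sided, used the 56 splits of 8 buds into 5 and 3, with a smallest p of 0.0179. The limma script was tested on simulated data. The members and gene lists were chosen with earlier results of these data known. Genes named are the 10 members, the 5 other EGF-type ligands, *Lats1* and *Lats2*, the 3 genes of each pathway list with the smallest unadjusted p, and the 3 genes most like each receptor, and the marker genes named were picked after their values were seen. Some genes that these rules would name are not reported here. Further marker lists were counted at an unadjusted p under 0.05 in limma, where 6.29% of all tested genes were higher and 4.99% lower. Higher genes were 6 of 10 tested for pancreatic progenitors, 3 of 9 for liver and 1 of 11 for leukocytes. Lower genes were 4 of 15 for endothelium and 2 of 5 for mesothelium. Nerve and neural crest had 1 of 12 higher and 1 lower, mesenchyme 4 of 17 lower and 1 higher, and red blood cells 0 of 8. The fits were repeated with quantile normalization, median-ratio scaling, array weights, a minimum mean of 2 FPKM or none, a pseudocount of 0.1, no trend, a replicate block, the epithelial marker mean as a covariate or subtracted, and each bud left out. Promoters were matched by symbol to the RefSeq table of GRCm38.p6. Coordinates are those of the deposited table with 1 added to its starts, since 11866 starts then equal those of RefSeq, against 680 without it.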

Additional observations from a re-analysis of the deposited data

Results flagged for a closer look

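Of 31 sets of values examined, each the FPKM of a gene or the share of a receptor within the 5 WT buds, 2 had a single bud far from the others, and chance alone would mark about 1 in 20. *Ereg* was listed at 0.0240 FPKM in WT replicate 1 and at 0 in the other 4 WT buds, a value of about 1 fragment. *Lats2* was 11.6 FPKM in WT replicate 5, against 14.0 to 14.7 FPKM in the other 4 WT buds.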

How the results depend on the processing

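The number of genes past the adjusted threshold in limma, 2 as reported, was 18 with a pseudocount of 0.1, 174 with array weights, 1 without the trend, and 0 to 19 when single buds were left out, the 19 without Lats1/2PanKO replicate 3. The number with an unadjusted p under 0.05, 1553 as reported, was 2578 with array weights, 505 with the epithelial marker mean as a covariate, and 812 (without Lats1/2PanKO replicate 3) to 2035 (without Lats1/2PanKO replicate 2) when single buds were left out. Array weights put 1 member, *Erbb3*, past the adjusted threshold. The number of members with an unadjusted p under 0.05, 3 as reported, was 0 with the covariate and 1 to 3 when single buds were left out, the 1 without Lats1/2PanKO replicate 3.

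With the marker mean as a covariate the log2 fold change turned to -0.24 for *Erbb3*, -0.34 for *Tgfa*, 0.23 for *Nrg2*, 0.025 for *Lats1*, 0.40 for *Adam12*, 0.033 for *Adam9*, -0.063 for *Errfi1* and -0.29 for *Jun*. With the marker mean subtracted it was -0.42 for *Egfr*, -0.93 for *Erbb2*, -0.57 for *Tgfa* and -1.05 for *Nrg1*. Quantile normalization turned *Nrg1* to -0.029. When single buds were left out, *Hbegf* ranged from -0.29 to 0.077, *Nrg1* from -0.039 to 0.12 and *Nrg2* from -0.15 to 0.035. The share difference ranged from -20.2 to -11.6 points for *Erbb2*, 7.72 to 19.1 for *Erbb3* and -0.024 to 0.80 for *Erbb4*, and the adjusted exact permutation p of *Erbb2* and *Erbb3* from 0.0571 to 0.190. Fewer splits hold it at 0.0571 or above without a WT bud and at 0.0952 or above without a Lats1/2PanKO bud, and it exceeded this floor without WT replicate 1 or 4 (0.114) and without Lats1/2PanKO replicate 3 (0.190). Apart from the construction of these fits, the cause was not tested.

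Deviations from the group means correlated at 0.0855, -0.0969 and 0.0685 between buds of the same replicate number. A replicate block gave 1 gene past the adjusted threshold and 1 member with an unadjusted p under 0.05, and *Erbb3* then had a log2 fold change of 1.11 (adjusted p = 0.513 in limma). Of the 3 Lats1/2PanKO buds, 2 correlated best with the WT bud of their own number. Whether the replicate numbers pair the buds was thus not settled. Depth limits *Areg*, *Ereg* and *Btc*, which lay at 0 to 3 fragments.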
